A study of Drosophila melanogaster with 13 samples.

Results

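The mitochondrial genome of Drosophila melanogaster contributed 38 of the 18344 genes measured in this study of adult heads. They were taken as every gene that the deposited annotation places on the mitochondrial chromosome and whose name starts with mt:. They comprise 13 messenger RNA genes, 2 ribosomal RNA genes, 22 transfer RNA genes and mt:ori, the control region. Heads were compared between GMR-Gal4/UAS-Rab5 RNAi flies (n = 5 libraries), GMR-Gal4/UAS-Rab7 RNAi flies (n = 4) and GMR-Gal4/WT controls (n = 4), all aged 5 days and kept at 25 °C. All 3 groups carry the GMR-Gal4 driver, an eye driver of the developing retina and the adult eye. Whole heads were sequenced, so RNA of brain, muscle and fat body is measured together with that of the eye. The study asked how Rab proteins, the small GTPases that direct membrane traffic, bear on microtubules and tubulin expression in a degenerating eye.

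Mitochondria keep a small circular genome of their own. Its messenger RNAs encode core subunits of the respiratory chain and of the ATP synthase, its ribosomal RNAs build the mitochondrial ribosome, and its transfer RNAs serve translation inside the organelle. Both strands are transcribed into long precursors from which the RNAs are cut, in many places at the transfer RNAs that lie between them. All proteins that transcribe, process and translate these RNAs, and most respiratory chain subunits, are encoded in the nucleus. Photoreceptors and neurons depend strongly on mitochondrial respiration.

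Levels are in FPKM, read counts scaled by the authors to gene length and to a library total that follows size factors, not plain read totals. The scaling does not correct for how well an mRNA kit captures each RNA or how reads on short genes are counted. Ranks and ratios between genes below are therefore those of FPKM, not of RNA amounts. Between 17138630 and 21410768 reads on genes lay behind each library. Rab5 itself was at 57.7 ± 5.56 FPKM (SD, n = 5) in Rab5 RNAi heads and 115.5 ± 4.54 FPKM (n = 4) in controls, a log2 difference of -0.99 (limma adjusted p = 1.9e-05). Rab7 was at 97.7 ± 9.54 FPKM in the Rab7 RNAi libraries and 99.97 ± 3.93 FPKM in controls, a log2 difference of -0.04 with a 95% interval from -0.21 to 0.13 (limma adjusted p = 0.879). These libraries are therefore called Rab7-labelled, and a direction stated for them belongs to the label, not to a measured loss of Rab7. In whole heads, fewer cells of a type and less RNA per cell cannot be told apart.

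Genes of the mitochondrial genome took 5.34%, 5.41%, 5.21% and 4.22% of all reads on genes in the control libraries 1 to 4. They took 6.87%, 9.84%, 5.87%, 8.23% and 8.59% in Rab5 RNAi 1 to 5, and 6.72%, 9.61%, 5.55% and 5.48% in Rab7-labelled 1 to 4. Every library of either RNAi group lay above all 4 controls, by as little as 5.48% against 5.41%, and the RNAi groups overlapped each other. The controls were also the tightest group, with 5.04% ± 0.557 (SD, n = 4) against 7.88% ± 1.54 (n = 5) for Rab5 RNAi and 6.84% ± 1.93 (n = 4) for Rab7-labelled heads.

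Most of the gap between groups lay in ribosomal RNA reads. Ribosomal RNA genes took 2.21% ± 0.439 of reads in controls, 4.37% ± 1.44 in Rab5 RNAi and 3.72% ± 1.27 in Rab7-labelled libraries, and messenger RNA genes took 2.83% ± 0.151, 3.51% ± 0.718 and 3.12% ± 0.661. The messenger RNA shares overlapped between the groups, whereas the ribosomal RNA share of every RNAi library was above the highest control, 2.61%. Transfer RNA genes together received 24 to 35 reads per control library, 35 to 115 in Rab5 RNAi and 44 to 93 in Rab7-labelled libraries.

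**Figure D1:**
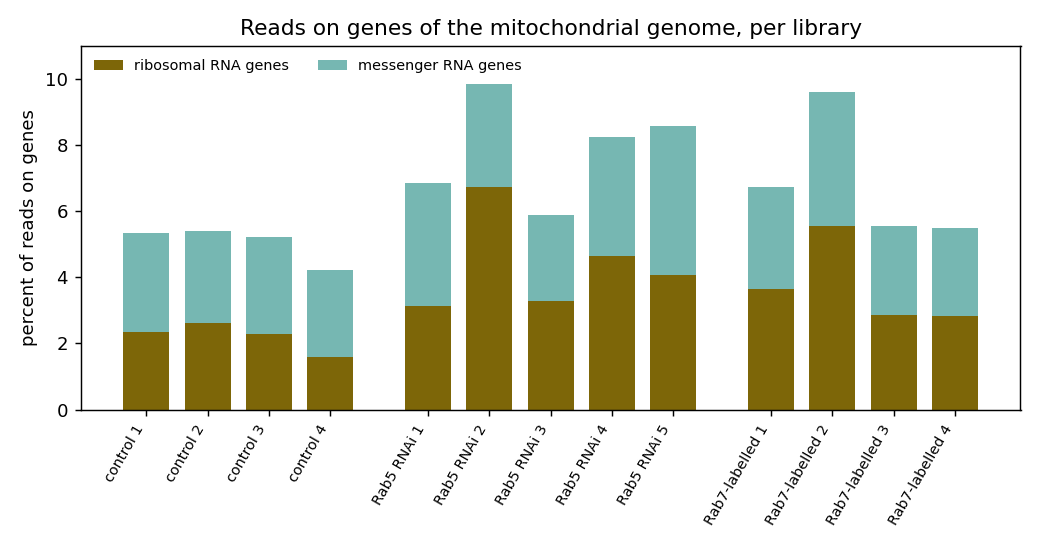
Percent of all reads on genes (vertical axis) that fell on mitochondrial ribosomal RNA genes (brown) and messenger RNA genes (teal) in each of the 13 libraries. The stacked height runs from 4.22% in control 4 to 9.84% in Rab5 RNAi 2, and the controls are the lowest and most even group.

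Within the set the levels spanned several orders of magnitude. mt:lrRNA, the large ribosomal RNA (positions 12735 to 14058, minus strand), had the highest mean FPKM of all 18344 genes, and mt:CoI, the catalytic subunit of cytochrome c oxidase, ranked 3. mt:ATPase6, mt:CoIII, mt:ND1, mt:CoII and mt:Cyt-b held ranks 5 to 9.

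The order of the 13 messenger RNAs was close to fixed. mt:CoI ranked 1 among them in all 13 libraries and made up 28.8% to 36.9% of their summed FPKM. mt:CoIII, a core subunit of the same complex, held rank 2 or 3, and mt:ATPase6, the proton channel subunit of the ATP synthase, ranks 2 to 5. mt:ND1 (complex I) ranked 3 to 6, and mt:CoII (complex IV) and mt:Cyt-b, the mitochondrially encoded subunit of complex III, ranked 4 to 6, so the order of these genes was not separable from the spread between libraries. Below them came the complex I subunits mt:ND5 and mt:ND4 at ranks 7 and 8, then mt:ND3 and mt:ND2 at ranks 9 and 10. mt:ND4L, mt:ATPase8 and mt:ND6 were the 3 lowest in every library.

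mt:CoI was at 9543, 9023, 9603 and 8095 FPKM in controls, at 10073, 9873, 7271, 10133 and 13142 FPKM in Rab5 RNAi and at 8670.4, 11837, 8146 and 7631 FPKM in Rab7-labelled libraries. Its highest level was only 1.81 times its lowest over the 13 libraries, the smallest such range among the messenger RNAs. At the other end mt:ND6, a complex I subunit, rested on 9 to 54 reads per library and mt:ATPase8, the small ATP synthase subunit, on 2 to 19.

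Neighbouring genes that can share a precursor differed widely in FPKM. mt:ATPase8 and mt:ATPase6 overlap by 7 bases, yet the FPKM of mt:ATPase6 was 295 to 5897 times that of mt:ATPase8. mt:ND4 and mt:ND4L overlap by 1 base, and mt:ND4 was 9.61 to 40.6 times as high. mt:lrRNA was 172 to 10634 times as high as mt:srRNA, the small ribosomal RNA (14131 to 14916, minus strand), with a median of 396 times. No label or header states the strand setting or how reads that touch 2 genes were counted, so reads of overlapping or opposite-strand neighbours cannot be told apart. mt:ATPase8 is also short, at 162 bases, and the libraries were made with an mRNA kit. How far counting and capture shape these ratios was not tested, so they are not measures of relative RNA amounts.

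Transfer RNA genes were barely covered, which the short length of the genes makes coarse: 1 read on any of them was worth 0.667 to 0.982 FPKM. For 9 of the 22 there was no read in any library (mt:tRNA:Ile-GAT, mt:tRNA:Asn-GTT, mt:tRNA:Ser-GCT, mt:tRNA:Glu-TTC, mt:tRNA:Phe-GAA, mt:tRNA:His-GTG, mt:tRNA:Thr-TGT, mt:tRNA:Pro-TGG and mt:tRNA:Ser-TGA), which at a limit of 3 reads over the 13 libraries allows 0.184 to 0.205 FPKM. A further 6, those for Met, Trp, Cys, Lys, Asp and Val, had reads but a mean below 1 FPKM. The 7 that passed this filter decode Gln, Tyr, Leu (both genes), Gly, Ala and Arg. The best covered was mt:tRNA:Tyr-GTA with 317 reads in all libraries together, then mt:tRNA:Gly-TCC with 185 and mt:tRNA:Gln-TTG with 143. mt:ori had 3 reads, all in Rab5 RNAi 2. Together with the 13 messenger and 2 ribosomal RNA genes, 22 of the 38 members entered the tests.

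**Figure D2:**
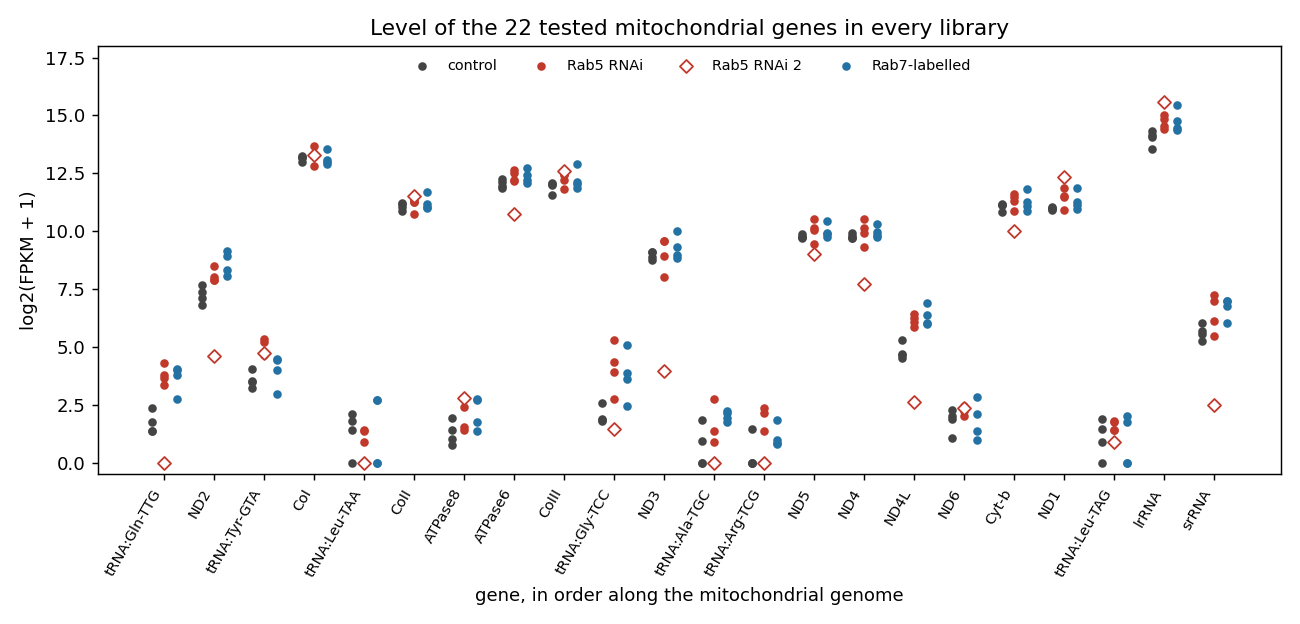
Level of each of the 22 tested genes on a log2(FPKM + 1) axis, in their order along the mitochondrial genome, with 1 point per library (control grey, Rab5 RNAi red, Rab7-labelled blue). The open diamond is Rab5 RNAi 2, which falls far below every other library at mt:ND2, mt:ND3, mt:ND4, mt:ND4L and mt:srRNA but not at mt:CoI.

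The library Rab5 RNAi 2 stood apart from the other 12, and results are given with and without it. Leaving out each library was planned, but this one was singled out by its values of the members tested here. Over the 10038 genes tested, 9 were more than 2-fold below every other library there on the log2(FPKM + 1) scale, and 7 of these 9 were mitochondrial: mt:ND3, mt:srRNA, mt:ND2, mt:ND4L, mt:ND4, mt:tRNA:Gln-TTG and mt:ATPase6. The 2 others, a10 and snoRNA:CD-24, were named after their values were seen. A further 7 genes, 0 of them mitochondrial, were more than 2-fold above every other library there, among them the antimicrobial peptide genes CecC (78.3 FPKM against at most 24.1) and CecA1 (73.8 against at most 29.5), also named after their values were seen. In each of the other 12 libraries 0 of the 22 members lay that far outside the rest.

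mt:ND3 was at 14.6 FPKM in this library and at 255 to 1011 FPKM in the other 12. mt:srRNA was at 4.66 FPKM there and at 37.4 to 151 FPKM elsewhere. Against the mean of the other 4 Rab5 RNAi libraries, mt:ND3 was 38.6 times lower, mt:srRNA 20.9 times, mt:ND4L 13.7 times, mt:ND2 11.6 times, mt:ND4 5.02 times and mt:ATPase6 3.17 times. mt:Cyt-b and mt:ND5 were 2.48 and 2.09 times lower. mt:tRNA:Gln-TTG had 0 reads in the library, a limit of 3 reads, against 12 to 25 reads in the other 4.

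Other members of the same genome were not low in it. mt:CoI, at 9873 FPKM, was at 97.2% of the mean of the other 4. mt:lrRNA was 1.84 times, mt:ND1 1.79 times, mt:CoII 1.30 times and mt:CoIII 1.29 times that mean, each above all 4. From mt:ND3 to mt:Cyt-b (5608 to 11635), a stretch with genes of both strands, every messenger RNA except mt:ND6 was below the other 4. The low genes mt:ND2, mt:ATPase6 and mt:srRNA lie outside this stretch. mt:CoI, mt:CoII and mt:CoIII lie between mt:ND2 and mt:ND3, as does mt:ATPase6, and mt:srRNA lies on the minus strand close to mt:lrRNA. The library was not shallow, with 17596962 reads, and it had the largest share of mitochondrial reads of all, 9.84%.

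**Figure D3:**
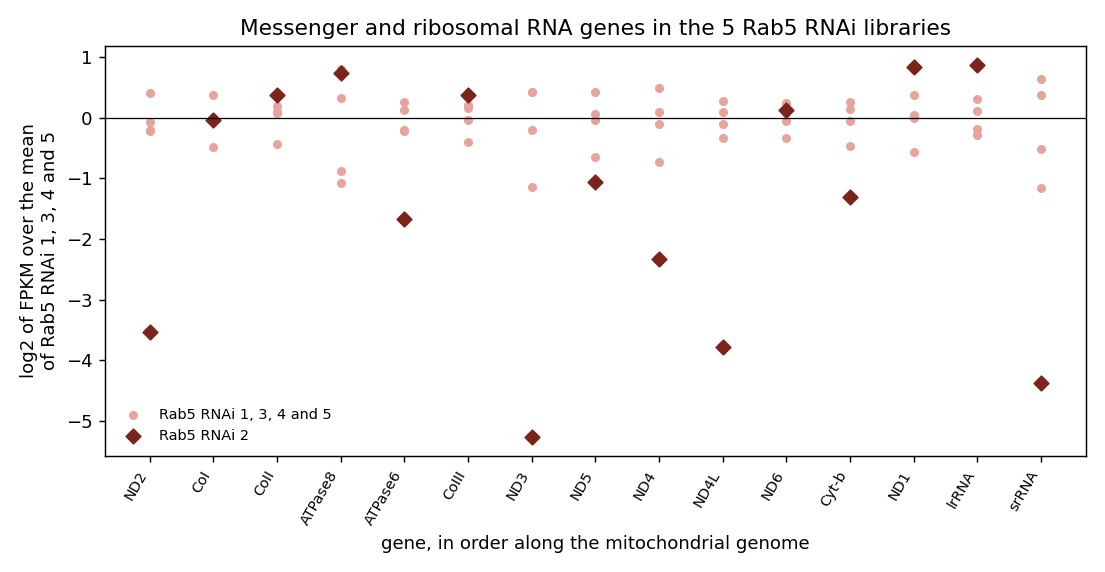
Log2 ratio of each messenger and ribosomal RNA gene's FPKM to its mean in Rab5 RNAi 1, 3, 4 and 5, for those 4 libraries (light points) and for Rab5 RNAi 2 (dark diamonds), genes in genome order. In Rab5 RNAi 2 mt:ND3 is 38.6 times and mt:srRNA 20.9 times below that mean, while mt:lrRNA is 1.84 times above it.

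In Rab5 RNAi heads against controls, 2 of the 22 members passed the test, both higher: mt:lrRNA and mt:tRNA:Tyr-GTA. Over all 10038 genes 17.5% passed in either direction, 8.26% higher and 9.28% lower, so 2 of 22 is near the share called higher and below the share called in either direction. The test was limma on log2(FPKM + 1) with Benjamini-Hochberg adjustment over all genes and a threshold of 0.05.

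mt:lrRNA was at 22078, 49545, 23634, 33265 and 28983 FPKM in Rab5 RNAi 1 to 5 and at 18218, 20225, 17389 and 11949 FPKM in controls 1 to 4. The groups did not overlap, although Rab5 RNAi 1 was close to control 2. The log2 difference was 0.86 (SE 0.27, limma adjusted p = 0.0416). This call was lost in 9 of 22 alternative fits, including the fits without Rab5 RNAi 2, 4 or 5, without any 1 control or without Rab7-labelled 1. Over the alternatives the log2 difference ran from 0.68 to 0.99 and the adjusted p from 0.0164 to 0.116.

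mt:tRNA:Tyr-GTA (1403 to 1468, minus strand, ending 5 bases short of mt:CoI on the other strand) was at 25.5, 25.2, 36.0, 24.0 and 39.5 FPKM in Rab5 RNAi, from 30 to 49 reads per library. Controls were at 15.5, 8.21, 10.1 and 10.4 FPKM, from 10 to 19 reads. All 5 Rab5 RNAi libraries were above all 4 controls. The log2 difference was 1.37 (SE 0.29, limma adjusted p = 0.0061), and it passed in all 22 alternative fits, with adjusted p from 0.00056 to 0.0244. With mt:lrRNA it was 1 of 2 members whose Rab5 RNAi libraries were all above the controls, which held for 8.93% of all genes.

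None of the 13 messenger RNAs passed in this comparison, and 2 had an unadjusted p under 0.05. Their differences were positive for 10 and negative for 3, where 4900 of all 10038 genes were positive. The median was 0.14 on the log2 scale beside -0.01 for all genes. Without Rab5 RNAi 2 all 13 differences were positive, with a median of 0.31 beside -0.01 for all genes, of which 4857 of 10027 were positive. That library was singled out by low values that include messenger RNAs of this set. These signs and this median are therefore not independent of the omission. mt:ND1, in complex I, came nearest, at 2971, 5121, 1929, 2859 and 3705 FPKM against 2131, 2019.6, 2010.2 and 1907 FPKM in controls. Here 1 of the 5 Rab5 RNAi libraries lay within the controls' range, and the log2 difference was 0.64 (SE 0.24, limma adjusted p = 0.0825). The other gene with a low unadjusted p was mt:ATPase8 (log2 difference 0.91, adjusted p = 0.126), at 6.04, 5.82, 4.34, 1.89 and 1.64 FPKM against 1.66, 0.669, 1.03 and 2.84 FPKM.

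The cytochrome c oxidase messenger RNAs showed small differences with narrow intervals. mt:CoI differed by 0.13 on the log2 scale (95% interval -0.22 to 0.49), mt:CoII by 0.14 (-0.24 to 0.51) and mt:CoIII by 0.39 (-0.06 to 0.84). Changes of 2-fold in these genes are outside those intervals, which does not show that they stayed level. For mt:ND3 (-0.95, SE 0.90) and mt:srRNA (0.03, SE 0.74) the errors were large. Without Rab5 RNAi 2 the differences were 0.06 for mt:ND3 (SE 0.33, adjusted p = 0.926) and 0.82 for mt:srRNA (SE 0.36, adjusted p = 0.155).

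Without Rab5 RNAi 2, 5 members passed, all higher, where 15.3% of 10027 genes passed in either direction and 6.94% were higher. mt:tRNA:Tyr-GTA stayed called (log2 difference 1.42, adjusted p = 0.0107), while mt:lrRNA was no longer called (0.68, adjusted p = 0.0800). The 4 that joined were mt:ND2, mt:ND4L, mt:tRNA:Gln-TTG and mt:tRNA:Gly-TCC. Each of these 6 genes lay above all controls in all 4 remaining libraries, which held for 10.4% of all genes. For the 4 that joined, the library left out was below the other 4 Rab5 RNAi libraries, and it was singled out by such low values. Their calls and their lack of overlap are therefore not independent of the omission, and the shares over all genes do not allow for this choice.

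mt:ND2, a membrane subunit of complex I (240 to 1263, plus strand), was at 362, 237, 261 and 236 FPKM in the remaining Rab5 RNAi libraries and at 23.6 FPKM in the one left out. Controls were at 165, 137, 111 and 202 FPKM. The 4 remaining libraries were above all 4 controls, with a log2 difference of 0.84 (SE 0.25, limma adjusted p = 0.0406).

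mt:ND4L, another membrane subunit of complex I (9545 to 9835, minus strand), was at 85.6, 65.8, 75.4 and 56.1 FPKM in those libraries, at 5.15 FPKM in Rab5 RNAi 2 and at 24.8, 23.7, 21.7 and 38.1 FPKM in controls. Its log2 difference without that library was 1.37 (SE 0.22, limma adjusted p = 0.0014), and with it 0.66 (SE 0.63, adjusted p = 0.521). Its partner mt:ND4 did not pass in either fit. Set against mt:ND4 in the same library, mt:ND4L was at 2.60% to 3.99% in controls and at 3.82% to 10.4% in Rab5 RNAi 1, 3, 4 and 5. In Rab5 RNAi 2 it was at 2.46%, below every control.

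mt:tRNA:Gln-TTG (97 to 165, minus strand) was at 12.6, 11.8, 18.5 and 9.24 FPKM in the 4 libraries, from 12 to 25 reads, and at 1.56, 1.57, 2.41 and 4.16 FPKM in controls, from 2 to 5 reads. The log2 difference was 2.06 (SE 0.32, limma adjusted p = 0.0012). mt:tRNA:Gly-TCC (5543 to 5607, plus strand, directly before mt:ND3) was at 14.2, 19.1, 38.5 and 5.72 FPKM against 4.97, 2.50, 2.56 and 2.65 FPKM, a log2 difference of 2.06 (SE 0.56, adjusted p = 0.0296). All 4 libraries exceeded all controls for both genes, but for mt:tRNA:Gly-TCC the lowest did so by 7 reads against 6.

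**Figure D4:**
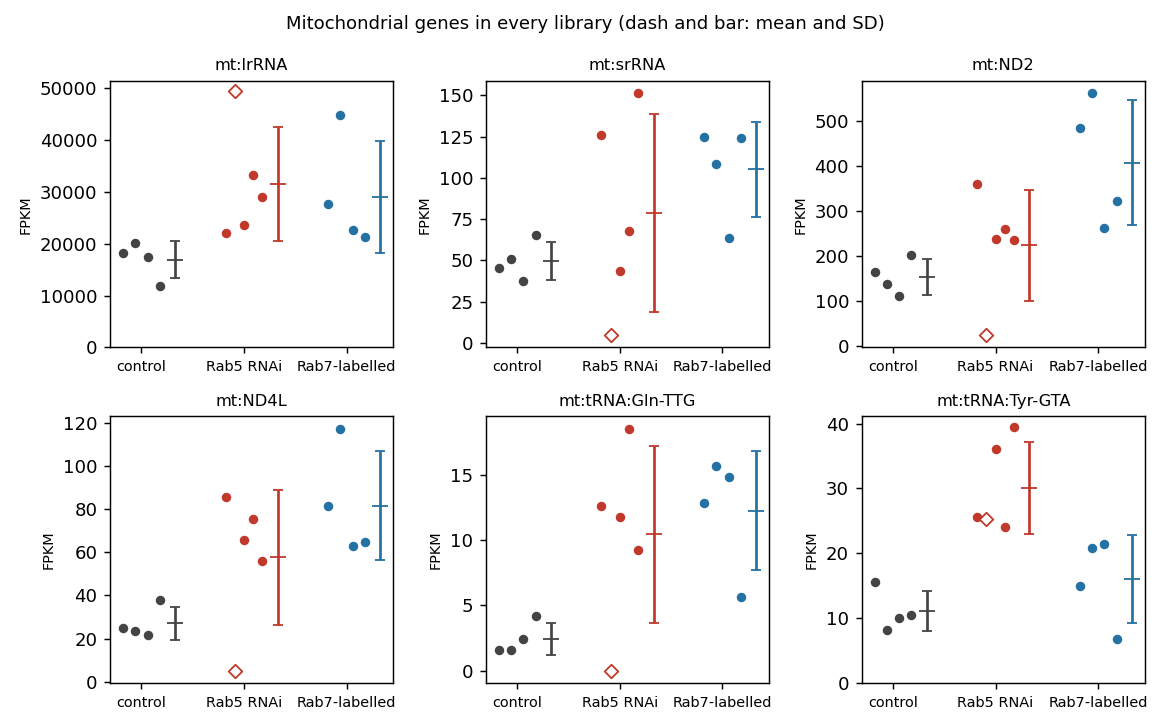
FPKM in every library for 6 mitochondrial genes, with 1 panel per gene and the mean and SD of each group beside its points (n = 4, 5 and 4, the open diamond Rab5 RNAi 2 included). For mt:ND2, mt:ND4L and mt:tRNA:Gln-TTG every RNAi library except Rab5 RNAi 2 lies above all controls, and for mt:tRNA:Tyr-GTA all 5 Rab5 RNAi libraries lie above the controls and the Rab7-labelled libraries.

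In Rab7-labelled heads against controls, 0 of the 22 members passed in limma, where 3.21% of all genes did. At an unadjusted p under 0.05 there were 6, and limma voom on the recovered reads also called 0. The differences were positive for 20 of the 22, and for 4807 of all 10038 genes. The median was 0.31 over the 13 messenger RNAs beside -0.01 for all genes. Members can share a precursor, so their signs are not independent of each other. For 4 members every Rab7-labelled library was above every control, which held for 6.87% of all genes: mt:lrRNA, mt:ND2, mt:ND4L and mt:tRNA:Gln-TTG.

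mt:ND2 was at 484, 563, 263 and 322 FPKM in Rab7-labelled 1 to 4, against at most 202 FPKM in a control (log2 difference 1.37, SE 0.66, adjusted p = 0.308). mt:ND4L was at 81.6, 117, 62.7 and 64.9 FPKM, against at most 38.1 FPKM (1.55, SE 0.66, adjusted p = 0.251). mt:tRNA:Gln-TTG was at 12.8, 15.6, 14.8 and 5.65 FPKM, against at most 4.16 FPKM (1.93, SE 0.74, adjusted p = 0.192). All 3 groups share 1 estimate of the spread in this fit, so Rab5 RNAi 2 enters these SEs. That library was singled out by low values that include these 3 genes, so smaller SEs in a fit without it are no independent support.

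In the fit without Rab5 RNAi 2, which removes no library of this comparison, the same log2 differences had limma adjusted p = 0.0101 for mt:ND2, 0.0022 for mt:ND4L and 0.0061 for mt:tRNA:Gln-TTG, so 3 members were called where 3.85% of all genes were. A fit of only these 2 groups, in which 5.88% of all genes were called, gave these 3 and mt:srRNA (adjusted p = 0.0177, 0.0057, 0.0109 and 0.0338). mt:srRNA was at 124, 109, 63.8 and 124 FPKM against 45.4, 51.1, 37.4 and 65.1 FPKM in controls. Rab7-labelled 3 lay just within the controls' range, and the log2 difference was 1.05 (95% interval -0.65 to 2.74 in the fit of all libraries).

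mt:lrRNA was at 27634, 44846, 22585 and 21309.7 FPKM in Rab7-labelled libraries, against at most 20225 FPKM in a control. The log2 difference was 0.74 (SE 0.28, limma adjusted p = 0.189) and did not pass in any fit. mt:ND4L per mt:ND4 was 7.24% to 9.41% in these libraries, above every control (2.60% to 3.99%). The 2 comparisons with controls share the 4 control libraries.

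**Figure D5:**
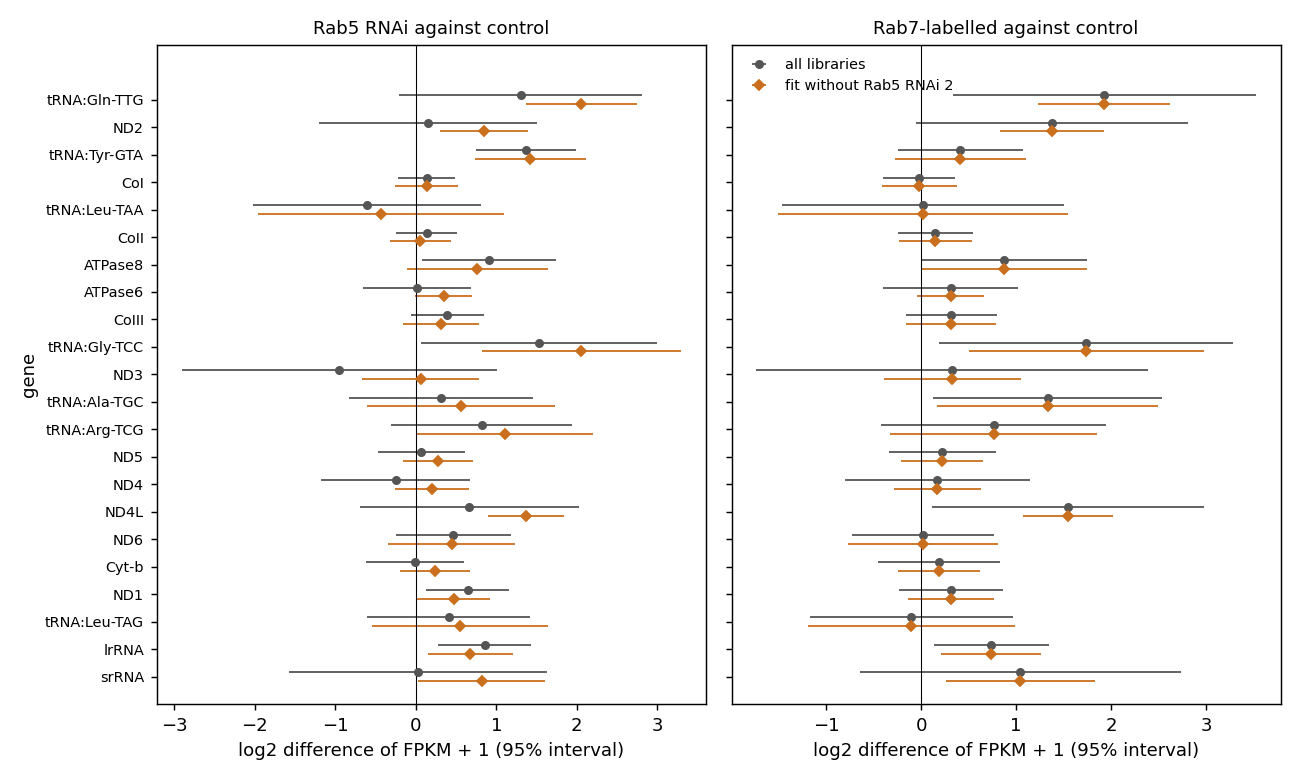
Log2 difference of FPKM + 1 from controls with its 95% interval for the 22 tested genes, for Rab5 RNAi (left) and Rab7-labelled heads (right), from the fit of all 13 libraries (grey circles) and the fit without Rab5 RNAi 2 (orange diamonds). In the right panel the points do not move, but the intervals of mt:ND2, mt:ND4L and mt:tRNA:Gln-TTG narrow.

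Between the RNAi groups 0 of the 22 members passed in limma, where 11.1% of all genes did, and 1 had an unadjusted p under 0.05. That was mt:tRNA:Tyr-GTA, at 24.0 to 39.5 FPKM in Rab5 RNAi and at 14.997, 20.9, 21.4 and 6.76 FPKM in Rab7-labelled libraries. The groups did not overlap, as for 4.98% of all genes in this direction, and the log2 difference was 0.95 (SE 0.29, limma adjusted p = 0.0519). It passed with libraries scaled to plain read totals (adjusted p = 0.0232), to totals without mitochondrial genes (0.0208) and in 3 other alternative fits. mt:lrRNA differed by 0.12 (95% interval -0.46 to 0.70). mt:ND2 was lower in Rab5 RNAi by point estimate (-1.22, interval -2.58 to 0.13, adjusted p = 0.246), and without Rab5 RNAi 2 this difference was -0.53 (adjusted p = 0.217).

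Marker RNAs of several cell types moved beside these results, and cell numbers were not measured. Of 15 photoreceptor markers 14 fell in Rab5 RNAi, most of all the rhodopsin Rh4 (log2 difference -4.02), and their summed level was 1917 to 9205 FPKM against 35769 to 46871 FPKM in controls. In Rab7-labelled libraries it was 18989 to 41813 FPKM and 0 of 15 were called. In Rab5 RNAi, where 9.28% of all genes were lower, 1 of 8 neuronal markers fell (nSyb, -0.57), as did 1 of 6 glial markers (alrm, -0.84) and 2 of 6 fat body markers (Yp3 most, -1.86). In Rab7-labelled heads 4 of 6 glial markers were below every control without being called. The share of all genes below every control is not given here, so this count stands without a background. In the fit without Rab5 RNAi 2, 3 of the 6 glial markers fell, where 3.85% of all genes were called in either direction. The same fit called 3 mitochondrial members higher. Summed neuronal markers were at 507 to 644 FPKM in Rab5 RNAi, 587 to 827 in Rab7-labelled libraries and 694 to 794 in controls, glial markers at 427 to 613, 425 to 507 and 578 to 696, and fat body markers at 190.2 to 403, 334 to 406 and 346 to 458. Of these 4 lists, Yp1 and Fbp1 of the fat body were at 0 FPKM in 1 library each. The part of these markers' cell types in the mitochondrial values was not tested.

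Muscle is rich in mitochondria, and its 19 markers summed to 2445 to 4574 FPKM in Rab5 RNAi, 2425 to 4624 FPKM in Rab7-labelled libraries and 2849 to 4407 FPKM in controls, so the groups overlapped. Of these markers TpnC4 alone was called in Rab5 RNAi, where it rose (log2 difference 2.34), and it was at 0 FPKM in 1 library. The muscle actin Act57B was at 1438 to 1574 FPKM in 5 libraries (Rab5 RNAi 1 and 5, Rab7-labelled 1 and 4, control 4) and at 653 to 846 FPKM in the other 8. Within each group mt:srRNA was highest in these libraries, at 126 and 151 FPKM, at 124 and 124 FPKM and at 65.1 FPKM. mt:lrRNA was lowest of its group in Rab5 RNAi 1, Rab7-labelled 4 and control 4, at 22078, 21309.7 and 11949 FPKM. It was not the lowest in Rab5 RNAi 5 or Rab7-labelled 1. Members other than these ribosomal RNAs are not set against Act57B library by library here. With Act57B as a covariate 2 of 22 members were called in Rab5 RNAi against controls, where 2379 of 10038 genes were called. In Rab7-labelled heads 0 members were called, where 687 genes were. Between the RNAi groups 1 member was called, where 1732 genes were. The part of muscle in the mitochondrial values was not tested.

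Of 42 tested nuclear genes that maintain and express the mitochondrial genome, 1 rose and 6 fell in Rab5 RNAi against controls, a share near the 17.5% of all genes called, with a median log2 difference of -0.11, and 0 were called in Rab7-labelled heads (median -0.08). The riser was mtDNA-helicase, the replicative helicase of mitochondrial DNA, at 4.07 ± 0.465 FPKM (n = 5) against 2.83 ± 0.453 FPKM (n = 4), a log2 difference of 0.41 (adjusted p = 0.0184). The others were the transcription termination factor mTTF (-0.31), the protease Lon (-0.28), the translation initiation factor mIF2 (-0.34) and the mitochondrial tRNA synthetases ArgRS-m (-0.36), PheRS-m (-0.31) and TyrRS-m (-0.41). TyrRS-m, the mitochondrial synthetase for tyrosine, was at 10.3 ± 1.39 FPKM against 13.96 ± 0.810 FPKM (limma adjusted p = 0.0148). A relation to the reads on mt:tRNA:Tyr-GTA was not tested.

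The RNA polymerase and its 2 partners in transcription did not pass in any of the 3 comparisons. Against controls in Rab5 RNAi, the RNA polymerase mtRNApol differed by -0.11 on the log2 scale (95% interval -0.26 to 0.04), the DNA-packaging transcription factor TFAM by -0.08 (-0.27 to 0.11) and mtTFB2, the transcription initiation factor, by 0.09 (-0.12 to 0.30). Between the RNAi groups 1 of the 42 genes of these lists was called, where 11.1% of all genes were. It was the topoisomerase Top3alpha, lower in Rab5 RNAi (log2 difference -0.40, limma adjusted p = 0.00465).

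Among nuclear oxidative phosphorylation genes, 0 of 66 rose and 9 fell in Rab5 RNAi against controls, where 9.28% of all genes were lower, with a median log2 difference of -0.13 beside 0.14 for the mitochondrial messenger RNAs. Without Rab5 RNAi 2 these medians were -0.17 and 0.31, and 8 of the 66 fell, where 843 of all 10027 genes were lower. That library was singled out by low values of mitochondrial genes, so the median of 0.31 is not independent of the omission. Complex I, which takes 7 of its subunits from the mitochondrial genome, had 7 of 32 nuclear members called, led by ND-B15 (-0.50, adjusted p = 0.0328). Complex II, with no mitochondrially encoded subunit, had SdhA (-0.30), and complex V had its alpha subunit blw (-0.31), 1 of 13. In complexes III and IV, which take 1 and 3 subunits from the mitochondrial genome, 0 of 8 and 0 of 9 were called. In Rab7-labelled heads 0 of the 66 were called. Between the RNAi groups, where 11.1% of all genes were called, 2 of the 66 were called. ND-51 of complex I (-0.35) and UQCR-C1 of complex III (-0.38) were lower in Rab5 RNAi. These differences between nuclear and mitochondrial genes were not tested against each other.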

How the data were processed

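Per the labels' protocols, each head library started from 1.3 ug total RNA and a SMARTer mRNA kit. The authors deposited FPKM for 18344 genes per library; the submitters' processing notes name CASAVA alone. Aligner, counter and genome build: not given in the sources used here. Coordinates are those of the deposited table, and 33 of the 38 members have the same in a BDGP6 annotation. The 13 per-sample columns of the series table were not used. Deposited FPKM times gene length gave whole reads for 100% of values above 0 (tolerance 0.05), and the totals behind the deposited FPKM matched size factors computed from those reads by the median-of-ratios method.

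Genes averaging 1 FPKM or more (10038) were fitted as log2(FPKM + 1) with limma 3.58.1 in R 4.3.3 (trend and robust options of its empirical Bayes step), with all 3 groups together and no covariate. The fit was tested on simulated data. That scale understates changes of low genes. Limits for 0 reads cover counting error only. The labels do not say whether libraries came from separate flies or crosses, so the spread behind each p-value is that of these samples and could be technical. Of 174 genes in the nuclear and marker lists 172 were found. All messenger and ribosomal RNA genes and every tested transfer RNA gene are named. Of the nuclear lists, mtRNApol, TFAM, mtTFB2 and called genes of mitochondrial gene expression are named, and the leading called gene of each complex or marker list. Members and lists were chosen with earlier results of these data known. Alternatives changed the pseudocount, filter, scaling, groups fitted and replicate block, and left out each library.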

Additional observations from a re-analysis of the deposited data

Results flagged for a closer look

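Over the 22 tested members in 3 groups, 66 sets of 4 or 5 libraries were examined for a library far from the others. Of these, 4 stood out, all at transfer RNA genes with few reads, and chance alone flags about 1 in 20 sets, so 4 of 66 is near that share. Rab5 RNAi 2 was not flagged at any member by this rule, which sets a library only against its own group and on the FPKM scale. mt:tRNA:Gly-TCC was at 4.97 FPKM in control 1, from 6 reads, while the other 3 controls lay between 2.50 and 2.65 FPKM. mt:tRNA:Ala-TGC was at 5.72 FPKM in Rab5 RNAi 5, from 7 reads, while the other 4 Rab5 RNAi libraries lay between 0 and 1.57 FPKM. mt:tRNA:Arg-TCG was at 2.61 FPKM in Rab7-labelled 4, from 3 reads, while the other 3 had 1 read each, 0.760 to 0.936 FPKM. The same gene was at 1.69 FPKM in control 2, from 2 reads, and had 0 reads in the other 3 controls.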

How the results depend on the processing

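No member called in the fit of all libraries changed direction, and no call in an alternative went against the direction of that fit. mt:ND2 in Rab5 RNAi against control was called without Rab5 RNAi 2 (log2 difference 0.84). With other single libraries left out it was not called, and its difference ran down to -0.13. Of 1448 values of single members 28 gained and 9 lost a call. Members called in Rab5 RNAi against control numbered 2, with 1 where low genes were not filtered, 6 without both Rab5 RNAi 2 and Rab7-labelled 2, and 1 to 5 when single libraries were left out. For Rab7-labelled heads against control they numbered 0, with 4 when only the 2 groups were fitted, 3 without both those libraries, and 0 to 3 with single libraries left out. Between the RNAi groups they numbered 0, with 1 under plain read totals, totals without mitochondrial genes or Act57B as a covariate (mt:tRNA:Tyr-GTA), 1 under the replicate block, and 0 to 1 with single libraries left out. The replicate block's call, lower mt:tRNA:Ala-TGC (log2 difference -1.46, adjusted p = 0.0365), also arose without Rab5 RNAi 5 (0.0415), the library without a same-numbered partner.

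Over all genes, 1761 were called in Rab5 RNAi against control, 1166 to 1780 with single libraries left out (lowest without control 1, then 1172 without control 2). In Rab7-labelled heads 322 were called, 165 to 386 with single libraries left out, 587 in the fit of 2 groups and 687 with Act57B. Between the RNAi groups 1111 were called, 724 to 1071, 1901 under totals without mitochondrial genes, 694 in the fit of 2 groups and 1732 with Act57B. The causes were not tested. Of the Rab5 RNAi calls against control 47.1% were higher, 67.6% under plain totals and 76.5% under totals without mitochondrial genes, where the median gene lay at 0.07 and 0.11; between the RNAi groups it was 42.2%, 74.0% and 77.5%, with medians of 0.11 and 0.12. mt:ND1 passed in Rab5 RNAi under both totals (adjusted p = 0.0376 and 0.0321) and without Rab5 RNAi 3 (0.0196).

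Same-numbered libraries did not deviate together throughout (correlations of -0.16 to 0.30 over 12 pairs), so the numbers were not taken as pairing; the block called 1946 genes in Rab5 RNAi against control. The covariate, limma voom and the paired omission were chosen after seeing the data. A planned edgeR fit was not run, since the deposited values are FPKM. Transfer RNA values rest on at most 49 reads per library, which limits their precision.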
